A study of Mus musculus with 2 samples.

Results

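Pseudogenes that lie away from protein-coding genes were examined for trimethylation of lysine 36 of histone H3 (H3K36me3) in mouse embryonic stem (ES) cells. The members are all genes of the GENCODE M21 annotation on chromosomes 1 to 19 whose type contains the word pseudogene and whose span shares no base with a protein-coding gene. They number 9205 of 11594 pseudogenes, and of 51229 annotated genes of all kinds, on these chromosomes. The rule uses the annotation and no measured value. Of the 9205, 7050 were processed pseudogenes, 1813 unprocessed, 208 immune receptor segments, 73 polymorphic, 30 unitary and 31 of no further type. The data are chromatin immunoprecipitation and sequencing (ChIP-seq) peak sets from E14TG2a.4, a male ES cell line of strain 129/Ola whose labels give the embryonic stage and 3.5 days as its age. The 2 replicates are separate biosamples of 1 donor, untreated as far as the labels say, with an antibody to H3K36me3; they form 1 group, and control libraries were not used here. Positions are on the mouse build mm10 (GRCm38).

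Processed pseudogenes are copies of messenger RNA that reverse transcription has put back into the genome, so they lack introns and usually a promoter of their own. Unprocessed pseudogenes come from duplicated gene sequence, unitary ones are genes that lost function in place, and polymorphic ones are intact in some individuals or strains. H3K36me3 is laid down mainly by SETD2, an enzyme that travels with elongating RNA polymerase II, and it is known from the bodies of transcribed genes, towards and beyond their 3′ ends.

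The sequences of 6 members that differ in position, coverage and uniqueness are printed here, 5′ to 3′ on the strand of the pseudogene, from the RefSeq GRCm38.p6 genome. Capitals mark bases that lie in at least 1 word of 32 bases of the printed span that occurs once in the genome on either strand. Lower-case bases lie only in words that occur elsewhere too. Gm43013 (chr5:137309396-137309642, plus strand), 11 bp past the 3′ end of Trip6, was wholly inside peaks, and its 247 bases are all in capitals.
Gm43013: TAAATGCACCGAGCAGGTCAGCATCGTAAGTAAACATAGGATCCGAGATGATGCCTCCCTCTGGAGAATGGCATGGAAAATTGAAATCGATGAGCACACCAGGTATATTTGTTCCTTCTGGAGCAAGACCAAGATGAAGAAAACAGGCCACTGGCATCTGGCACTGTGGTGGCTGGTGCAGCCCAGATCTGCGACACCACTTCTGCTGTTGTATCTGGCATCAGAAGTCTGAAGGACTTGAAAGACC
Gm3219 (chr14:34345281-34345580, plus strand, its first 300 of 303 bases) lies 15 bp past the marked gene Glud1 and had no base in a peak. Its best match, Bcl7c, is identical to it over the aligned bases, and 181 of the printed bases are in lower case.
Gm3219: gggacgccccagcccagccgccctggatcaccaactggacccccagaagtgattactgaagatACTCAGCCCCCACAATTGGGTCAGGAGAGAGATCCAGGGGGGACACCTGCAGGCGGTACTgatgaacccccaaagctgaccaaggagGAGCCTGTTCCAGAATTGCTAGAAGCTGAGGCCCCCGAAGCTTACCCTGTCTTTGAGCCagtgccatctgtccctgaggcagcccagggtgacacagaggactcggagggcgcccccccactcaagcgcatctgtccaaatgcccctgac
Gm10263 (chr13:73317844-73318143, plus strand), 99.0% identical to the ribosomal protein gene Rps28, had the largest difference between the replicates among marked members. It has 198 lower-case bases and a run of capitals at its 3′ side.
Gm10263: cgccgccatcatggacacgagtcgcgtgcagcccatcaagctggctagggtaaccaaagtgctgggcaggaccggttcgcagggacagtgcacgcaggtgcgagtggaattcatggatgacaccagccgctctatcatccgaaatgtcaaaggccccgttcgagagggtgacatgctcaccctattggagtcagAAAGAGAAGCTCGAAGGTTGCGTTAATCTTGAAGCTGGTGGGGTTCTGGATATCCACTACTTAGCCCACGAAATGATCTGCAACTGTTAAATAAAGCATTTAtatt
H2afy3 (chr15:62219033-62219332, minus strand, its first 300 of 1112 bases) matches H2afy2, which encodes a macroH2A histone, and was wholly inside peaks 228 kb from the nearest coding 3′ end. All but 12 of its printed bases are in capitals.
H2afy3: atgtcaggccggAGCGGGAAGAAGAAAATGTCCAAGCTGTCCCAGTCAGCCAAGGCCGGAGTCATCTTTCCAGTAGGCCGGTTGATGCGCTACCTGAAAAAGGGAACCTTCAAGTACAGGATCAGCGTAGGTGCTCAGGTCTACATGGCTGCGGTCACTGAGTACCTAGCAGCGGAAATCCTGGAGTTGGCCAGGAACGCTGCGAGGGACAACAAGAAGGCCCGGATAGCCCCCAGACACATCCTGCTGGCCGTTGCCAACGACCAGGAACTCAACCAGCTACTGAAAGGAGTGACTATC
Gm12793 (chr4:101341357-101341648, plus strand) and Gm49532 (chr13:66591913-66592013, minus strand) are short processed pseudogenes that also lay far from coding 3′ ends. They were covered in both replicates and hold no lower-case base. Capitals need only 1 unique word over a base, and of the words of Gm49532 only 55.7% occur once.
Gm12793: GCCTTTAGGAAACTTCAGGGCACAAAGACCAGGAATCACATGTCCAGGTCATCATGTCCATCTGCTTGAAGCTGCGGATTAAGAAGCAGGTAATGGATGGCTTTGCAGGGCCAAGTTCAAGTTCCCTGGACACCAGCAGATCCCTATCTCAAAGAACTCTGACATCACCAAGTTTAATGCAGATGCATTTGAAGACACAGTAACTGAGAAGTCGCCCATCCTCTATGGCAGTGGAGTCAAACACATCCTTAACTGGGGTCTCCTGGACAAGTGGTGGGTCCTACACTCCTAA
Gm49532: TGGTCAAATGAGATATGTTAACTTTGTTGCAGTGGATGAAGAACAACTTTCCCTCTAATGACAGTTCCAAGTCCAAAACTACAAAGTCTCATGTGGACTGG

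The covered share of a pseudogene is the percentage of its span inside the peaks that each replicate's own reads gave. A pseudogene was called marked where at least 10% of its span was covered in each replicate. By that rule 79 of the 9205 members, 0.858%, were marked. The background was 20.6% of all annotated genes, 38.4% of coding genes and 3.02% of 6546 long non-coding RNA (lncRNA) genes away from coding genes. It was 0.525% of windows of 500 bases tiled outside coding genes and pseudogenes. The marked share of pseudogenes was thus far below that of coding genes and nearer to that of other sequence outside them. For comparison, 307 of the 2389 pseudogenes that overlap a coding gene, 12.9%, were marked.

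No base was covered in either replicate in 9052 members. A further 97 had at least 1 covered base in both replicates (25.2% of all genes and 0.552% of windows). In replicate 1 a covered base was found in 121 members, and in replicate 2 in 129. In 16 members at least 10% was covered in replicate 1 only, and in 23 in replicate 2 only. Among all genes these 2 numbers were 779 and 372. At least 25% was covered in both replicates in 64 members (16.9% of all genes and 0.481% of windows). In 43 members at least 50% was covered in both replicates (11.7% of all genes and 0.399% of windows), and 23 were wholly covered in both. Of these 23, 22 were processed pseudogenes. Pooled over all bases of all members, 0.949% was covered in replicate 1 and 0.959% in replicate 2, or 0.954% ± 0.0077 (SD, n = 2). These values rest on called peaks whose read depth is unknown, so an uncovered pseudogene is one with no call, not one shown to lack the mark. In such a bulk population, fewer cells with the mark and less mark per cell cannot be told apart. With 2 replicates of 1 group no test over samples exists, and differences are set against the spread between the replicates.

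The line was checked on coding genes. All 8 ES cell markers, among them Pou5f1, Sox2, Nanog and Esrrb, were marked, with 37.1 to 84.9% of the body covered in replicate 1 and 33.8 to 85.1% in replicate 2. All 8 fibroblast or feeder markers, such as Col1a1 and Thy1, and all 4 markers of the 2-cell-like state, such as Zscan4c, were at 0 in both replicates. Replicate 1 had 107779 peaks over 139 Mb and replicate 2 had 98185 peaks over 127.0 Mb.

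Processed and unprocessed pseudogenes carried the mark to about the same extent overall. Of the 7050 processed members 57 were marked, 0.809%, and of the 1813 unprocessed members 19, 1.05%. The pooled covered share of processed members was 0.807% in replicate 1 and 0.868% in replicate 2, or 0.838% ± 0.043. For unprocessed members it was 0.863% and 0.837%, or 0.850% ± 0.018. The difference, processed minus unprocessed, was -0.0555 points in replicate 1 and 0.0313 in replicate 2. Its mean of -0.0121 ± 0.0614 was smaller than its own spread, so no difference was detectable in these data. Subsets of members did differ. The difference was 0.136 ± 0.049 points when members overlapping another annotated gene were left out. It was -0.652 ± 0.060 points among members with at least 80% unique sequence. Both values were larger than their own spread, with opposite signs.

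The 2 types differed in how coverage was spread along the span. Processed members had a median length of 574 bases and unprocessed ones of 1714 bases. Among the 57 marked processed members 38 were covered over at least 50% in both replicates, against 4 of the 19 marked unprocessed members. The part of length in these counts was not tested.

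A larger contrast lay between pseudogenes annotated as transcribed and the others. Among processed pseudogenes 8 of 168 transcribed members were marked, 4.76%, against 49 of 6882 others, 0.712%. Among unprocessed pseudogenes 10 of 177 transcribed members were marked, 5.65%, against 9 of 1635 others, 0.550%. The pooled covered share was 1.28% ± 0.015 in transcribed and 0.651% ± 0.055 in other processed members, and 1.95% ± 0.11 against 0.352% ± 0.024 in unprocessed members. Both replicates gave the same order in each pair. A few long members carried the pooled value of transcribed processed members. In replicate 1, Gm3325 held 9.74 kb and Gm9320 8.12 kb of the 30.1 kb covered there. In replicate 2 they held 9.75 and 6.95 kb of 30.5 kb. The pooled share without them was not computed. Transcribed members are longer (a median of 3366 bases in the processed and 9769 in the unprocessed class), and over all members the share marked was 0.466% of those under 300 bases and 2.81% of those over 5000. The part of length in the contrast was not tested.

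**Figure D1:**
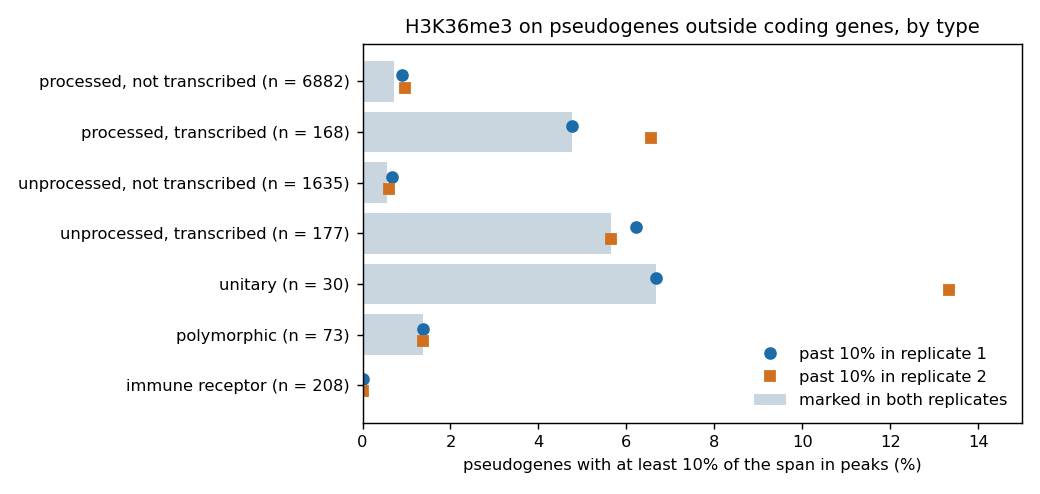
Share of pseudogenes outside coding genes with at least 10% of the span in peaks, in percent, by annotated type. Bars give the share past that level in both replicates, circles replicate 1 and squares replicate 2. Processed and unprocessed members annotated as transcribed stand at 4.76% and 5.65%. Those without that annotation stand below 1%, and the 208 immune receptor segments at 0.

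The rarer types hold few marked members. Of 10 transcribed unitary pseudogenes 2 were marked. Slc2a4rg-ps, the mouse relic of a zinc finger gene named for its link to the glucose transporter SLC2A4, was covered over 86.8% in replicate 1 and 79.5% in replicate 2. Its near end lies 175 bp past the 3′ end of the unmarked gene Zbtb46, and on its other side lies the marked gene Lime1, wholly covered in both replicates, 0.621 kb away. It shared a joined domain with a coding gene in both replicates. Zfp862-ps, 30496 bases long and named as a zinc finger pseudogene, was covered over 32.4% and 35.7%. Of the 73 polymorphic members the only marked one was Atp10d, which encodes a phospholipid flippase in strains where it is intact. It spans 95447 bases, the longest of the marked members, with 17.7% and 15.4% covered. Both the 208 immunoglobulin and T cell receptor segments and the 31 members without a further type were uncovered in each replicate.

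Pseudogenes were marked most often just past the 3′ end of a coding gene that was itself marked. Within 5 kb past the 3′ end of a marked coding gene lay 152 members, of which 31 were marked, 20.4%. Past unmarked coding genes, at the same distance, 5 of 470 were marked, 1.06%. The marked members past marked genes were concentrated in the first 2 kb, with 25 of 58 marked, 43.1%. From 2 to 5 kb the count was 6 of 94, 6.38%, and from 5 to 10 kb and from 10 to 20 kb it was 0 of 142 and 0 of 188.

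In finer steps, 11 of 18 members within 500 bp were marked, 4 of 12 from 500 to 1000 bp, 10 of 28 from 1000 to 2000 bp, 4 of 33 from 2000 to 3000 bp and 2 of 61 from 3000 to 5000 bp. The same fall was seen in sequence that is not a pseudogene. Of the windows past marked genes, 34.1% were marked in the first 2 kb, 7.56% from 2 to 5 kb, 2.17% from 5 to 10 kb and 1.09% from 10 to 20 kb. Within 5 kb the windows reached 20.0%, so the pseudogenes there were marked about as often as the other sequence around them.

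By bases the pseudogenes stood below the windows. Their pooled covered share within 5 kb past marked genes was 10.2% in replicate 1 and 9.27% in replicate 2, or 9.72% ± 0.64, against 18.7% ± 1.99 in windows. This pooled value is weighted by long members. Processed members alone had 13.6% ± 0.68 and 26 of 128 marked, 20.3%, and unprocessed members 8.25% ± 0.64 and 5 of 21 marked, 23.8%. In the first 2 kb processed members reached 31.2% ± 0.70, against 31.6% ± 2.95 in windows. Members on the strand of the gene were marked in 10 of 62 cases, 16.1%, and those on the other strand in 21 of 90, 23.3%.

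**Figure D2:**
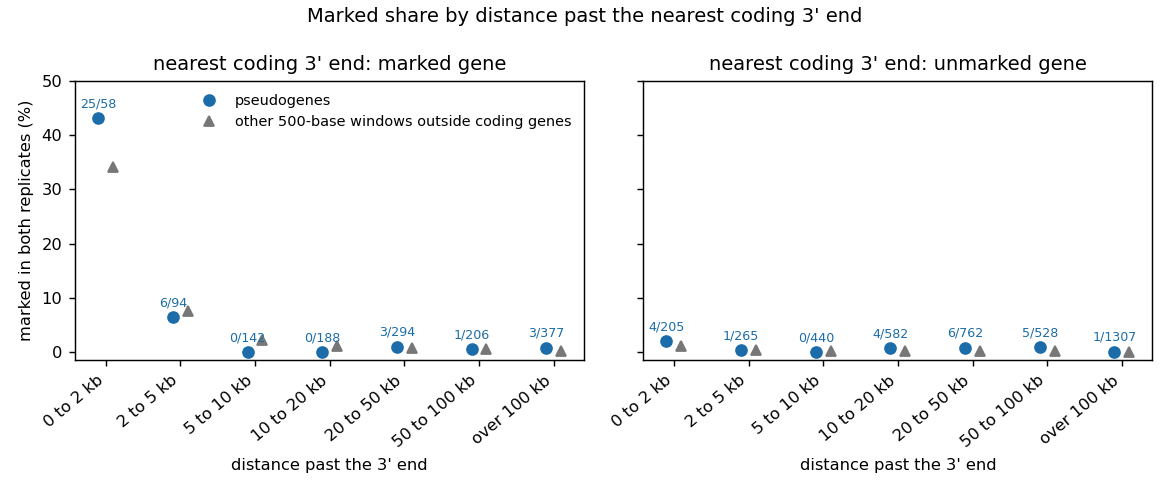
Share of pseudogenes (circles, with marked and total numbers) and of other windows of 500 bases outside coding genes (triangles) marked in both replicates, in percent, by distance past the nearest coding 3′ end, for marked genes (left) and unmarked genes (right). Past marked genes the share falls from 43.1% within 2 kb to 0 of 142 from 5 to 10 kb, with windows at 34.1% and 2.17%.

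All 31 marked members past marked genes lay in a domain that also held bases of a coding gene, in both replicates, when peaks up to 3 kb apart were joined. The number was 25 of 31 when peaks up to 1 kb apart were joined. A shared domain was likely from the choice of these members, which were covered and lay within 5 kb of a covered gene. Where a member touched several domains, their whole extent was used. With peaks up to 3 kb apart joined, the domains had a median length of 21.2 kb in replicate 1 and 25.2 kb in replicate 2. The pseudogenes inside them had a median of 522 bases. The neighbouring genes had 26.9 to 92.4% of their bodies covered in replicate 1 and 25.5 to 93.5% in replicate 2.

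The member with the highest enrichment belongs to this group. The authors give a fold over background for each peak, and its mean over all bases of a span, with 0 outside peaks, was used to rank members within each replicate. Gm36189 (chr6:88882655-88883177), a copy of the ribosomal protein gene Rpl17 at 91.3% identity, lay 296 bp past Mcm2, a subunit of the replicative helicase. It was wholly covered in both replicates with a mean fold of 12.6 in replicate 1 and 20.3 in replicate 2. In each replicate 1 peak, of 15181 and 14778 bases, held the whole copy. The fold is therefore that of a long peak and was not measured on the copy alone. Mcm2 itself was covered over 91.4% and 89.8% of its body, and the 2 kb on each side of the copy over 95.5% and 93.7%.

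Several others of this group had high folds too. Gm10250, a copy of Atp5h, which encodes a subunit of the mitochondrial ATP synthase, lay 1513 bp past Rpl37, with a mean fold of 10.1 and 15.3. Hba-ps4, an unprocessed relic of an alpha-globin gene, lay 858 bp past Luc7l, which encodes a splicing factor, with a mean fold of 8.67 and 10.5. The globin genes themselves serve red blood cells. These folds too are those of whole peaks. The peak over Gm10250 was 7208 bases wide in replicate 1 and 6945 in replicate 2, and that over Hba-ps4 6811 and 6797.

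Gm12941 lay 491 bp past Zmym1 with a mean fold of 10.1 and 7.86, and Gm36796 lay 76 bp past Tra2b, another splicing factor gene, with 6.79 and 10.1. Gm14276, a copy of Rps2, lay 372 bp past Dsn1, a kinetochore gene, with 6.19 and 7.58. Gm6607 lay 1511 bp past Anln, which encodes the actin-binding protein anillin, with 6.37 and 6.60. Each of these 4 was wholly covered in both replicates. The peaks over Gm12941 were 10127 and 8190 bases wide, and those over Gm36796 6048 and 4982. Those over Gm14276 were 1388 and 1507 bases wide, and those over Gm6607 1319 and 1044. Gm43013, printed above, had 5.91 and 10.3, behind a Trip6 body covered over 63.5% and 66.0%.

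**Figure D3:**
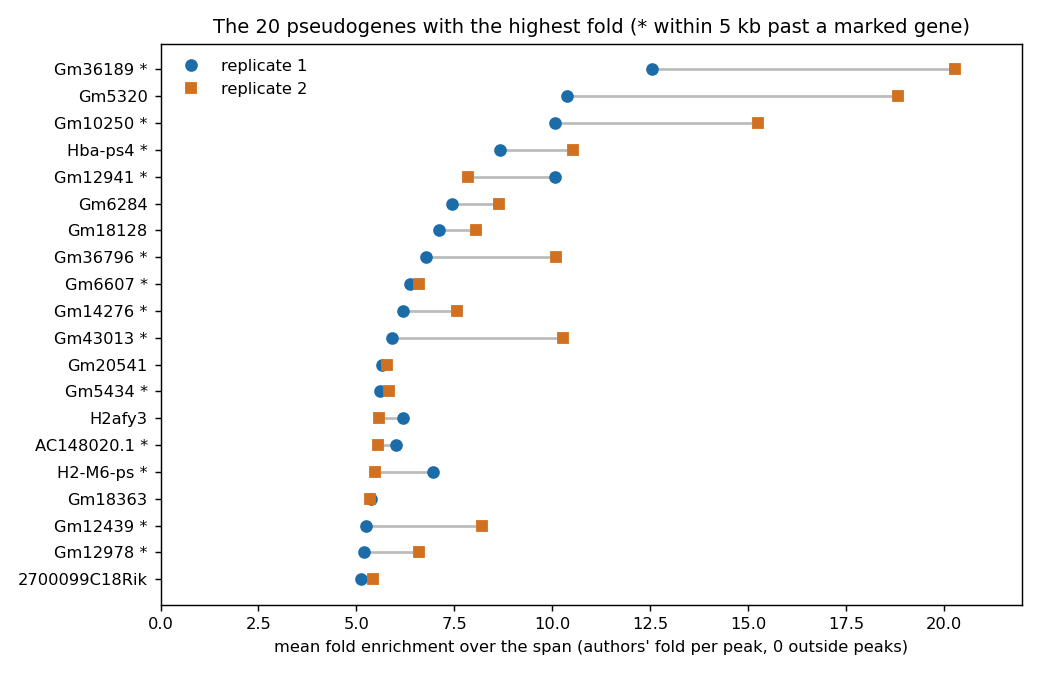
Mean fold enrichment over the span for the 20 pseudogenes with the highest values, ranked by the lower replicate, with circles for replicate 1, squares for replicate 2 and a line joining them. Gm36189 leads at 12.6 and 20.3, inside peaks of 15181 and 14778 bases. An asterisk marks members within 5 kb past a marked coding gene.

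The group reaches into long and unprocessed members too. H2-M6-ps, a relic of a class I histocompatibility gene, lay 3569 bp past Znrd1as and was covered over 78.97% and 83.4%. Gm7972, 18066 bases long, was covered over 38.6% and 26.4% behind Leo1, a subunit of the elongation factor complex PAF. Gm2420 lay 106 bp past Pisd and was covered over 26.6% and 27.6%. In the long members the covered part is only a portion of the span.

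Most members close past a marked gene had no call. Of the 152 members within 5 kb, 121 were not marked, and 109 had no covered base in either replicate. Gm3219, printed above, lay 15 bp past Glud1, whose body was covered over 79.8% and 71.9%, and had none. Gm7284, an unprocessed copy in which every word is unique, lay 737 bp past Plod3, covered over 82.5% and 84.9%, and had none either. Gm14127 was covered over 67.9% in replicate 1 and had no covered base in replicate 2. The unmarked members lay farther out, at a median of 2930 bp against 1000 bp in the marked ones, while their median unique share was 79.6% against 81.02%.

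Far from coding 3′ ends the mark was rare but not absent. Over 50 kb from any coding 3′ end lay 4731 members, of which 19 were marked, 0.402%, against 0.129% of windows at that distance. Their pooled covered share was 0.417% in replicate 1 and 0.492% in replicate 2, or 0.454% ± 0.053, against 0.134% ± 0.00095 in windows. The pseudogenes were above the windows in both replicates. The value depends on which members are kept. Without members that overlap another annotated gene, the pooled share was 0.184% and the number marked 9, and among members with at least 80% unique sequence the share was 0.174% and the number 4. Windows were not filtered in these ways.

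None of the 19 shared a joined domain with a coding gene in either replicate. This was likely from the choice of members so far from coding 3′ ends. Pooled by bases, 22.2% ± 0.068 of the 2 kb on each side and 25.5% ± 1.31 of the spans lay inside peaks. The pooled span value is weighted by long members. By member, the median covered share of the flanks was 9.28% in replicate 1 and 20.9% in replicate 2. For the spans of the 19 it was 53.9% and 61.9%. The 19 were chosen by coverage of the span and not of the flanks, so a higher value in the spans was likely from the choice. Their domains had a median of 2.45 kb in replicate 1, shorter than the domains past marked genes. Of the 19, 14 were processed and 5 unprocessed, and 6 lay on chromosome 13.

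The wholly covered far members include H2afy3, Gm18363, Gm49532 and Gm6069. H2afy3 (chr15:62218221-62219332) lies inside the lncRNA gene Pvt1, next to Myc. A single peak of 1809 bases in replicate 1 and 1820 in replicate 2 covered it, with a mean fold of 6.19 and 5.57. The joined domain around it was 125 kb long in replicate 1 and 24.4 kb in replicate 2, so its extent differed between the replicates. Pvt1 itself was covered over 44.1% and 29.2%.

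Gm18363, 730 bases long and a copy of Cacybp, a gene for a calcyclin-binding protein, overlaps no other annotated gene and was wholly inside 1 peak in each replicate, of 1486 and 1356 bases. Its mean fold was 5.37 and 5.35. The nearest coding gene, Epdr1, 65.0 kb away, had no covered base. Of its 32-base words 99.7% occur once in the genome. Gm49532, only 101 bases long, lay within a peak of 2526 bases in replicate 1 and 2621 in replicate 2.

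**Figure D4:**
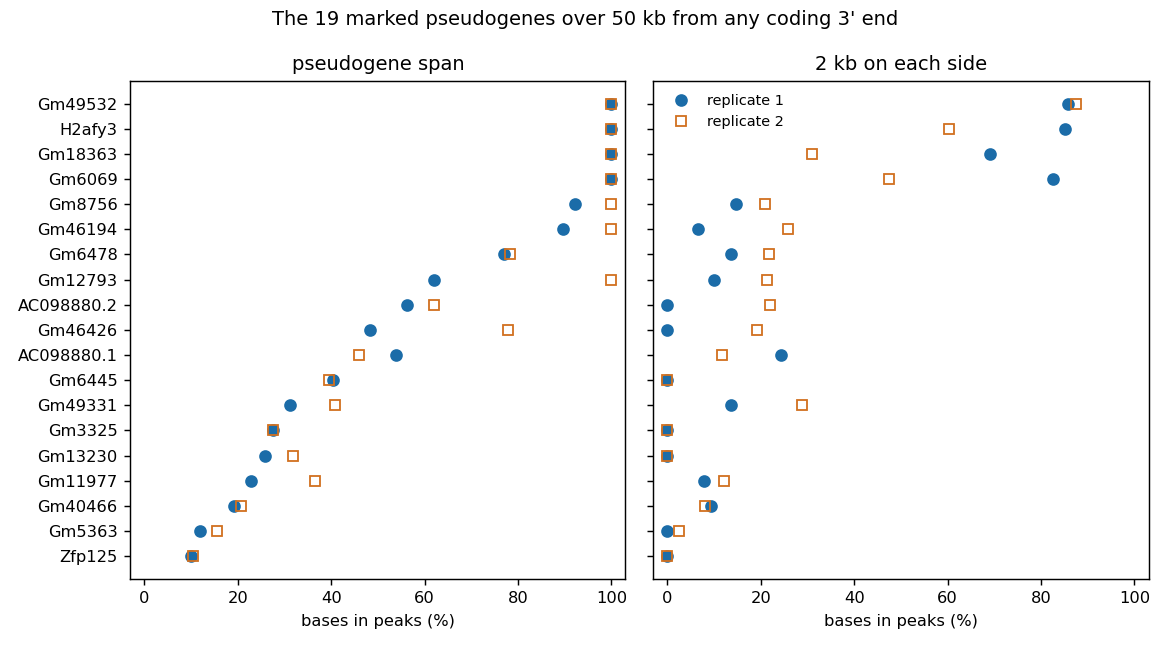
Percentage of bases in peaks for the 19 marked pseudogenes over 50 kb from any coding 3′ end, on the pseudogene span (left) and on the 2 kb on each side (right), with filled circles for replicate 1 and open squares for replicate 2. Gm49532, H2afy3, Gm18363 and Gm6069 were wholly covered in both replicates, and Zfp125 lies just past the 10% level. Several members had no covered base in their flanks. The members were chosen by coverage of the span, not of the flanks.

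Some far members overlap lncRNA genes known from ES cells. Gm6069, a copy of Ppia, which encodes cyclophilin A, lies inside Platr4, named as a pluripotency-associated transcript, on the other strand. It was wholly covered in both replicates, and Platr4 was covered over 82.3% and 67.2%. Gm8756 was covered over 92.2% and 100% inside Lncenc1, a lncRNA gene named for ES cells and covered over 39.3% and 40.5%. Gm13230, which overlaps the end of Platr16 and runs past it, was covered over 25.8% and 31.8%, and Platr16 over 11.4% and 12.4%.

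Across all members, 20 of the 759 that overlap a lncRNA gene were marked, 2.64%, against 53 of the 8201 that overlap no other annotated gene, 0.646%. Of the 14 members that overlap a marked lncRNA gene 7 were marked. Such a member shares its bases with the lncRNA gene, so the marks of the pair cannot be told apart. The same holds for Gm5320, the member with the second highest fold, 10.4 and 18.8. It is a copy of Phgdh, the first enzyme of serine synthesis, and lies inside the lncRNA gene Gm44983, covered over 81.6% and 81.05%.

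Outside the run past marked genes, several members with high values lay in neighbourhoods of zinc finger genes. Gm6478 and Gm3325 overlap each other near Zfp808 on chromosome 13, covered over 77.1% and 78.3% and over 27.5% and 27.5%. Gm46194 lay 38.3 kb from Zfp873 and was covered over 89.7% and 100%. Within 100 kb of a Zfp gene, and not in the 5 kb past a marked gene, 10 of 371 members were marked, 2.70%, against 38 of 8682 elsewhere, 0.438%. The windows showed a like contrast, with 1.11% against 0.214%. This grouping was made after the values were seen.

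Members named as zinc finger pseudogenes showed the highest marked share of the symbol families, with 3 of 14, against 0.858% of all members. Of the coding Zfp genes 236 of 388 were marked. The 3 were Zfp862-ps, Zfp264 and Zfp125, with lengths of 30496, 13842 and 44179 bases. Of all members over 5000 bases, 2.81% were marked. The count is small, and the part of length in it was not tested. Zfp264, in the imprinted Peg3 region beside Usp29 and overlapping Zim3 on the other strand, was covered over 26.9% and 30.2%. Zfp125 was covered over 10.04% and 10.42%. Of the 32-base words of Zfp125, 42.8% occur once in the genome.

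Pseudogenes named for families whose coding genes were often marked are read against the 0.858% marked among all members, and nothing particular to them is drawn from counts this small. Symbols for ribosomal proteins name 183 members, of which 2 were marked, 1.09%, while 83 of 95 coding ribosomal protein genes were, 87.4%. Rps15a-ps7 was among the marked members, covered over 49.7% and 36.5%. None of the 7 members named for glycolysis, the 10 for translation factors, the 8 for chaperones and cyclophilins or the 4 for pluripotency genes was marked. The coding genes of these families were marked in 12 of 15, 59 of 66, 24 of 39 and 23 of 35 cases.

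The families whose coding genes were rarely marked are read against the same 0.858%, and no difference between families was tested. None of 255 olfactory receptor pseudogenes, 218 vomeronasal receptor pseudogenes and 27 cytochrome P450 pseudogenes was marked, and their coding genes were marked in 1 of 1128, 0 of 331 and 6 of 102 cases. No keratin (2) or histone (3) pseudogene was marked, and of 9 histocompatibility pseudogenes only H2-M6-ps was. The 8 high mobility group pseudogenes were unmarked too, while 9 of the 18 coding genes of that family were marked.

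By sequence, 4369 members could be matched to the transcript of a coding gene, 49.5% of the processed and 45.4% of the unprocessed members. The best-matching gene was marked for 81.4% of the processed members with a match on chromosomes 1 to 19, and for 13.02% of the unprocessed ones. Of 2859 members whose matched gene was marked 32 were marked, 1.12%, and of 1389 whose matched gene was not marked 11 were, 0.792%. By bases the pooled covered share was 2.01% ± 0.010 against 0.430% ± 0.060. It was 1.25% ± 0.061 against 0.415% ± 0.10 in processed members, of which 27 of 2749 and 5 of 629 were marked. In unprocessed members it was 6.02% ± 0.25 against 0.451% ± 0.054, with 5 of 106 and 6 of 708 marked. A few long members carried these pooled values. In replicate 1, 2700099C18Rik held 18.5 kb, 5830417I10Rik 11.9 kb and Gm13147 7.49 kb of the 39.96 kb covered in unprocessed members with a marked match, and in replicate 2 they held 17.9, 10.8 and 5.75 kb of 37.7 kb. Gm3325 held 9.74 kb, Gm9320 8.12 kb and Gm6284 4.82 kb of the 40.4 kb in processed ones.

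Counts for copies of single genes are likewise small beside the 0.858% marked among all members. Gapdh, the glycolytic enzyme gene with the most copies, was covered over 72.1% ± 2.96 of its body, and of its 128 best-matching pseudogenes 1 was marked, 3000002C10Rik. Rpl7a was covered over 91.9% ± 0.28 with none of 78 marked, and Rpl21 over 82.04% ± 1.16 with none of 47. Hmgb1, covered over 2.12% ± 0.072, had 2 marked copies of 85. That share is of a long annotated span, from 149046702 to 149184489 on chromosome 5, so it can be low although part of the gene is covered. Of all 708 members whose best match is a ribosomal protein gene 8 were marked, 1.13%.

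**Figure D5:**
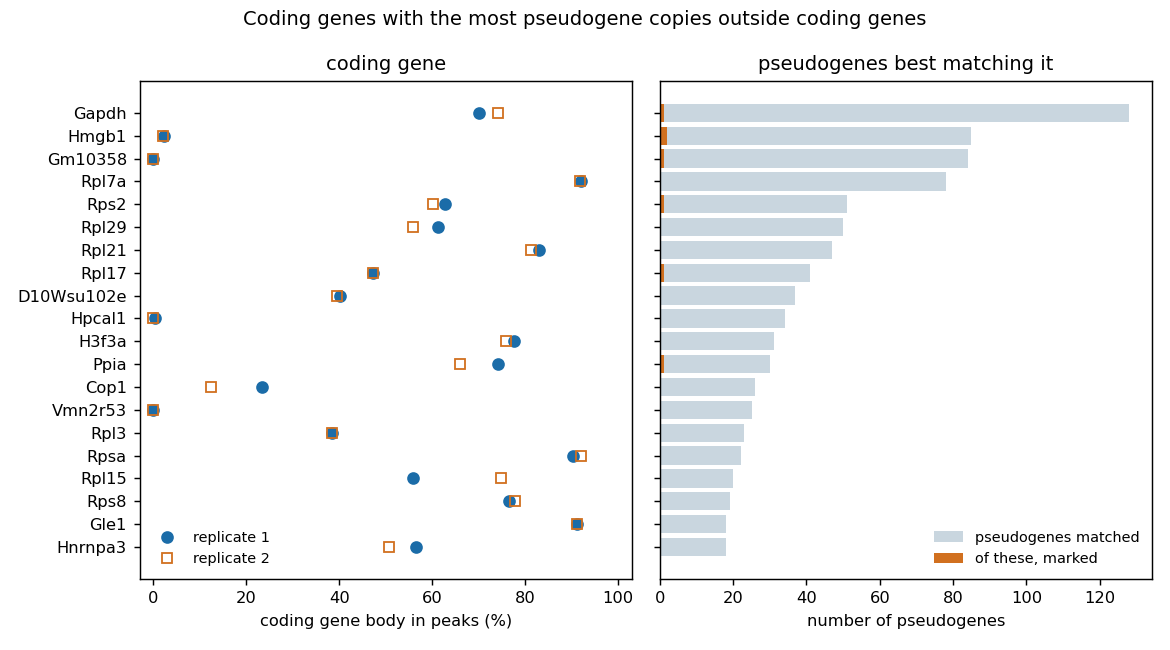
The 20 coding genes with the most best-matching pseudogenes outside coding genes: percentage of the coding gene body in peaks in replicate 1 (filled circles) and replicate 2 (open squares) on the left, and the number of matched pseudogenes (grey) with the number marked (orange) on the right. Gapdh has 1 marked copy of 128 and Rpl7a none of 78.

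Reads can be hard to place on a copy whose sequence is not unique. Each member was therefore given the percentage of its 32-base words that occur once in the genome. The median was 79.9% over all members, 83.3% in processed and 65.3% in unprocessed ones. Marked and unmarked members hardly differed, at 79.2% and 79.9%. Of the 1250 members under 20% unique 3 were marked, 0.240%, the lowest share of the 5 ranges. From 20 to 50% it was 12 of 1358, from 50 to 80% 25 of 1995, from 80 to 95% 25 of 1777 and from 95 to 100% 14 of 2818, so the share did not go up steadily with uniqueness. Within 5 kb past marked genes, 4 of 30 members under 50% unique were marked and 27 of 122 others.

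Pseudogenes were also set against their own surroundings. Over all members 0.954% ± 0.0077 of the span was covered and 0.453% ± 0.021 of the 2 kb on each side, leaving out bases inside coding genes. The difference of 0.501 ± 0.029 points was larger than its spread and had the same sign in both replicates. Both shares are pooled by bases, so long members weigh more in the span than in the flanks. The 640 members of 5000 bases or more held 147 of the 194 kb of span covered in replicate 1. In replicate 2 they held 145 of 196 kb. The part of length in the difference was not tested. The difference was 0.231 points without members that overlap another annotated gene and 1.04 points among members with at least 80% unique sequence. Among members within 5 kb past marked genes the order was the other way, with 9.72% ± 0.64 of the span and 14.1% ± 1.31 of the flanks covered.

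The replicates gave similar pooled shares, while single members varied. Over the 153 members with a covered base in either replicate, the covered shares of the replicates had a Pearson correlation of 0.658 and a Spearman correlation of 0.487, as a description over members of the same libraries. The median absolute difference over the 79 marked members was 2.58 points. This set had to reach 10% in both replicates, and 23 of its members were wholly covered in both. Left out of it were 16 members that reached 10% in replicate 1 only and 23 in replicate 2 only. The largest difference among marked members was in Gm10263, covered over 72.3% in replicate 1 and 18.3% in replicate 2. Gm12793 had 61.99% and 100%, Gm12439 100% and 67.1%, Gm46426 48.3% and 77.8%, and Gm5434 88.2% and 64.4%. Replicate 1 was higher in 22 marked members, replicate 2 in 33, and they were equal in 24.

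At the 10% level, Zfp125 was just inside with 10.04% and 10.42%, followed by 3000002C10Rik with 10.2% and 15.4% and Pisd-ps1 with 10.4% and 22.4%. Just outside were 3110053B16Rik with 9.41% and 9.76%, Gm21926 with 9.47% and 8.13%, and Zfp939 with 8.98% and 7.36%. All 6 are of types annotated as transcribed.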

How the data were processed

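H3K36me3 ChIP-seq peaks of 2 replicates of E14TG2a.4 cells were used as deposited. The lists of files that were deposited beside each sample describe the main sets as narrow peaks on mm10 supported by pseudoreplicates (random divisions of a library's reads), called for each replicate alone. Aligner, caller, read length and depth are not stated in the sources used. For each peak the authors deposited a fold enrichment over background as a ratio, and p and q as −log10. The fold is the authors' own value and served to rank members within a replicate. A narrow caller divides a broad mark, so covered bases were used. Differences in coverage between replicates can also come from depth, and the strain of the cells differs from that of the reference genome.

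Gene spans came from GENCODE M21. Covered share, distance to the nearest coding 3′ end, its gene's state, flanks of 2 kb, domains (peaks up to 3 kb apart joined) and windows of 500 bases were computed with Python 3.11.15, numpy 2.4.6, pandas 2.3.3 and numba 0.67.0. Words of 32 bases were counted over both strands of chromosomes 1 to 19, X and Y, a length chosen for want of the read length. Members were matched to coding transcripts with minimap2 2.31 (k 13, w 5). The procedures were tested on simulated data. The members, lists and thresholds were chosen with earlier results of these data known.

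Genes named in the text are the 10 with the highest fold (the lower replicate), the 10 with the highest covered share over 50 kb from coding 3′ ends, up to 3 marked members per type and 4 per family, the 5 with the largest replicate difference, those next to the threshold and the 5 longest. Lncenc1, Platr4, Platr16, Pvt1 and the other host or matched genes follow from these. Gm43013, Gm3219, Gm7284, Gm14127, Gm18363's neighbours, Gm13230, Gm13147, Gm9320 and Lime1 were named after their values were seen, and not every gene of the rule is described; 1 is not reported here. The replicates form 1 group, so values are means ± SD and no test over samples was made. Alternatives were the unthresholded sets of another processing run, peaks with −log10 q of at least 5, the authors' set of replicated peaks, 1 replicate left out, other thresholds, and members restricted by overlap, uniqueness or length. The combined, mm9 and other sets were not used.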

Additional observations from a re-analysis of the deposited data

How the results depend on the processing

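No paired analysis was possible because the replicates form 1 group and no groups were compared. No result is a test, so a value is called moved where it left the spread between the replicates or, for a count, passed 1.5 times. A marked share needs both replicates, while its spread was taken from the shares of each replicate alone. For marked shares the label is thus only a rough guide. Of the alternatives run, 45 moved a value and 37 did not. The cause was not tested for any of them, but some directions were fixed by the rule. A higher threshold could not raise a marked share or count. Leaving out 1 replicate could not lower one, because coverage in both was no longer needed. With the authors' set of replicated peaks, 130 members were marked (79 as reported), 1.40% of processed and 1.43% of unprocessed members, the difference in pooled share was -0.0848 points, the pooled share past marked genes was 10.8%, the far share 0.626% with 36 marked (19 as reported), and the excess over flanks 0.646 points. With the unthresholded sets, which also come from other alignments, the processed and unprocessed marked shares were 1.05% and 1.21%, the far share 0.336% and the excess over flanks 0.429 points. With −log10 q of at least 5 these were 0.709%, 0.938%, 0.384% and 0.429 points. Counting any base in each replicate gave 1.82% of unprocessed members and 7.20% past marked genes. At 25% of the span, 0.723% of processed and 0.607% of unprocessed members were marked, with 12.3% covered past marked genes. At 50% these were 0.539%, 0.221% and 12.01%, with 43 members marked, 9 of them far. Without members overlapping another annotated gene, the marked shares were 0.667% and 0.567%, the difference 0.136 points, the far share 0.184% with 9 marked and the excess over flanks 0.231 points. With at least 80% unique words, 39 were marked, 4 of them far, the difference was -0.652 points, the share past marked genes 10.9%, the far share 0.174% and the excess over flanks 1.04 points. With spans of at least 500 bp the unprocessed marked share was 1.30%, the share past marked genes 8.78% and the excess over flanks 0.578 points. Leaving out each replicate gave 95 to 102 marked members, 0.993 to 1.09% of processed and 1.10 to 1.21% of unprocessed members, a difference of -0.0555 to 0.0313 points, 8.88 to 9.68% past marked genes, a far share of 0.417 to 0.492% with 24 to 27 marked, and an excess of 0.480 to 0.521 points. Unknown read depth, sequence that occurs more than once, and a narrow caller limit what can be called on short copies.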

Other observations

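Processed pseudogenes can keep a trace of the poly(A) tail of the messenger RNA they came from. A run of at least 10 A, from 10 bases before to 60 bases past the 3′ end on the pseudogene's own strand, was found in 336 of 7050 processed members, 4.77%, and in 12 of 1813 unprocessed members, 0.662%. Of the 57 marked processed members 5 had such a run, 8.77%, and of the 6993 unmarked ones 331, 4.73%. These are descriptions of the reference sequence, and the difference between marked and unmarked members rests on 5 members.

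Against 0.858% of all members, chromosome 17 had 11 of 487 members marked, 2.26%, and chromosome 13 had 10 of 564, 1.77%, while chromosome 14 had 1 of 550, 0.182%; the shares of other sequence on these chromosomes were not set beside them. On chromosome 17 the transcribed unprocessed member 2700099C18Rik, which matches Ndc80, a kinetochore gene, at 70.7% identity, was covered over 74.0% in replicate 1 and 71.4% in replicate 2 across 25.03 kb. Its nearest coding 3′ end, that of Mettl4, lay 27.5 kb away, and the shorter member Gm27038, which it contains on the other strand, was wholly covered in both replicates.

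Gm6284, a processed copy of Baz2a, which encodes a subunit of a chromatin remodelling complex that acts on ribosomal DNA, was covered over 92.9% and 94.0% of its 5191 bases, with a mean fold of 7.44 and 8.64. It overlaps no other annotated gene, and 91.8% of its words are unique. Gm18128 was wholly covered in both replicates with a mean fold of 7.10 and 8.07, while only 10.3% and 19.4% of the 2 kb on each side of it lay in peaks. Gm20541, an unprocessed member 38.5 kb from Olfr129, an olfactory receptor gene with no covered base, was covered over 92.5% and 92.4%.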
